A study of Homo sapiens with 12 samples.

Results

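HK-2 cells, an immortalised line of human renal proximal tubular epithelium, were compared after 12 h with CsA and after 12 h with its vehicle control, on 3 Affymetrix arrays in each group. These 6 of the 12 arrays of the series were chosen by their titles, which name CsA or a CsA control sample, the time and the biological replicate. The other 6 arrays hold CsA and its own control at 48 h, again with 3 in each group. CsA is read here as cyclosporine A, at a dose that the labels do not give. All 4 groups shared a medium with EGF, hydrocortisone, insulin and transferrin, and all cells were near confluence when CsA or vehicle was added. The question was which genes beyond lists of stress genes of the endoplasmic reticulum (ER) and of ATF4 differed between CsA and control after 12 h. The lists need not hold every gene of these pathways, so a gene outside them may still belong to ER stress. A list of 114 tested genes of ER chaperones and the unfolded protein response and a list of 87 tested genes that respond to ATF4 and to a shortage of amino acids were therefore set aside, which left 10449 of the 10650 tested genes.

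Cyclosporine A binds cyclophilins, and the complex blocks calcineurin, the phosphatase that lets NFAT factors enter the nucleus. Its use in transplant patients is limited by damage to the kidney, in which the proximal tubule is a main site. Cyclophilins also help proteins fold in the ER, and a cell with a burdened ER slows translation, makes more chaperones and enlarges the machinery that moves cargo to the Golgi. Membrane growth draws on cholesterol and fatty acid synthesis, which SREBP factors control. A gene was tested where its probe set, the one of the highest mean for that gene, was above 4 on the log2 scale on at least 3 of the 12 arrays.

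The arrays at 12 h were close to each other: across tested genes, arrays of a group correlated at 0.992 to 0.994, and the median standard deviation (SD) of a gene within a group was 0.117 with CsA and 0.123 in control. At 48 h it was 0.286 with CsA, where replicate 3 stood apart, with a correlation as low as 0.930 with replicate 1. In the 48 h controls the median SD was 0.213. There replicate 3 stood off less, at 0.966 with replicate 1 and 0.980 with replicate 2, against 0.986 between replicates 1 and 2. Of the 13 proximal tubule markers with a probe set, 4 were above 4 at 12 h, namely DPP4, PAX8, CDH6 and CDH2. LRP2, CUBN, AQP1, GGT1, ANPEP, MME, SLC22A6, SLC5A2 and PAX2 were not, so the line lacked most defining transporters and brush border genes of the tubule on these arrays. All 6 epithelial markers were above 4. Of markers of other cells, 7 of 11 for fibroblasts and pericytes, 4 of 6 for podocytes, 2 of 13 for distal nephron, 2 of 11 for endothelium and 1 of 12 for leukocytes (CD74) were above 4. The summed linear level of the leukocyte markers was 739 to 777 with CsA and 723 to 730 in control, and these ranges did not overlap. Most of this sum was CD74 alone, at a log2 mean of 9.43 with CsA and 9.38 in control. PTPRC, CD3E and CD14 lay below 4 in both groups. The ranges of the other lists overlapped, including podocyte markers at 6900 to 8140 with CsA and 7920 to 8990 in control, and their part in the results was not tested. Every array is titled as HK-2, a single cultured line, so these markers give levels in that line. Fewer cells in a given state and less RNA per cell cannot be told apart in such bulk samples.

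Arrays with the same replicate number at 12 h deviated together from their group means, with correlations of 0.358, 0.524 and 0.585 over genes, so each CsA array was set against the control array of its number. Of 10650 genes, 2016 (18.9%) were higher with CsA in all 3 pairs and 2380 (22.3%) were lower in all 3. Steady differences of some size were fewer. At least 0.25 in every pair was reached by 163 genes upward (1.53%) and 100 downward (0.939%), of which 94 and 99 lay outside the lists set aside. At least 0.5 in every pair was reached by 44 genes upward (0.413%) and 3 downward (0.0282%), of which 14 and 3 lay outside. All 10 genes that reached 1 in every pair were on the lists set aside, and none reached it downward. All CsA arrays lay above all control arrays for 575 genes (5.4%) and below them for 694 (6.52%). The larger differences were thus mostly upward and mostly on the 2 lists, while outside them about as many genes passed 0.25 in either direction.

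The statistical tests depended on the pairs. Without them limma called 0 of 10650 genes (0.0%) at an adjusted p under 0.05, with 138 at an unadjusted p under 0.05 and no adjusted p below 1.00. Adding the replicate number as a block over all 12 arrays gave 3 called genes (0.0282%), and over the 6 arrays at 12 h alone with that block limma called 5 (0.0469%). Every gene called in these 2 fits was on the lists set aside. A fit of the 6 arrays with the block, a trend of the variance with the level and robust moderation, named the trend fit below, called 102 genes higher (0.958%) and 25 lower (0.235%). Of the 102, 64 were on the lists set aside and 38 were outside, and the 25 lower genes were all outside. In what follows, called means an adjusted p under 0.05 in the trend fit, and each such gene outside the lists was at 1.00 in limma without the block and not called in either of the other blocked fits. A difference is the mean of the 3 pair differences, CsA minus control, on the log2 scale, with the SD over the pairs.

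The genes given by name outside the lists are the 25 higher and the 25 lower ones whose smallest pair difference was largest. Each had a mean above 5 in at least 1 of the 2 groups at 12 h. Some passed through 1 group only and lay nearer the filter level of 4 in the other. Examples are BTBD19 at 5.35 with CsA and 4.55 in control, GTF2IP20 at 5.52 and 4.53, and DGAT2 at 4.99 and 5.88. The 25 higher genes had mean differences from 0.418 to 1.05 with a median of 0.693. The CsA arrays lay above all control arrays in 17 of them, and the trend fit called 12. Over all tested genes these shares were 5.4% and 0.958%. The 25 lower genes had mean differences from -0.89 to -0.406 with a median of -0.52, with arrays apart in 11 and calls in 9. Over all tested genes these shares were 6.52% and 0.235%. The 50 genes were chosen by their differences on the same 6 arrays, which raises such counts, so the counts lend the differences no support. The last gene taken upward was LY96 with a smallest pair difference of 0.38, as had PLPP5, the next one. Downward it was TNFAIP6 with 0.36, and TATDN2 followed with 0.35. In the block over 12 arrays the adjusted p of the 50 genes ran from 0.16 to 0.884.

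**Figure D1:**
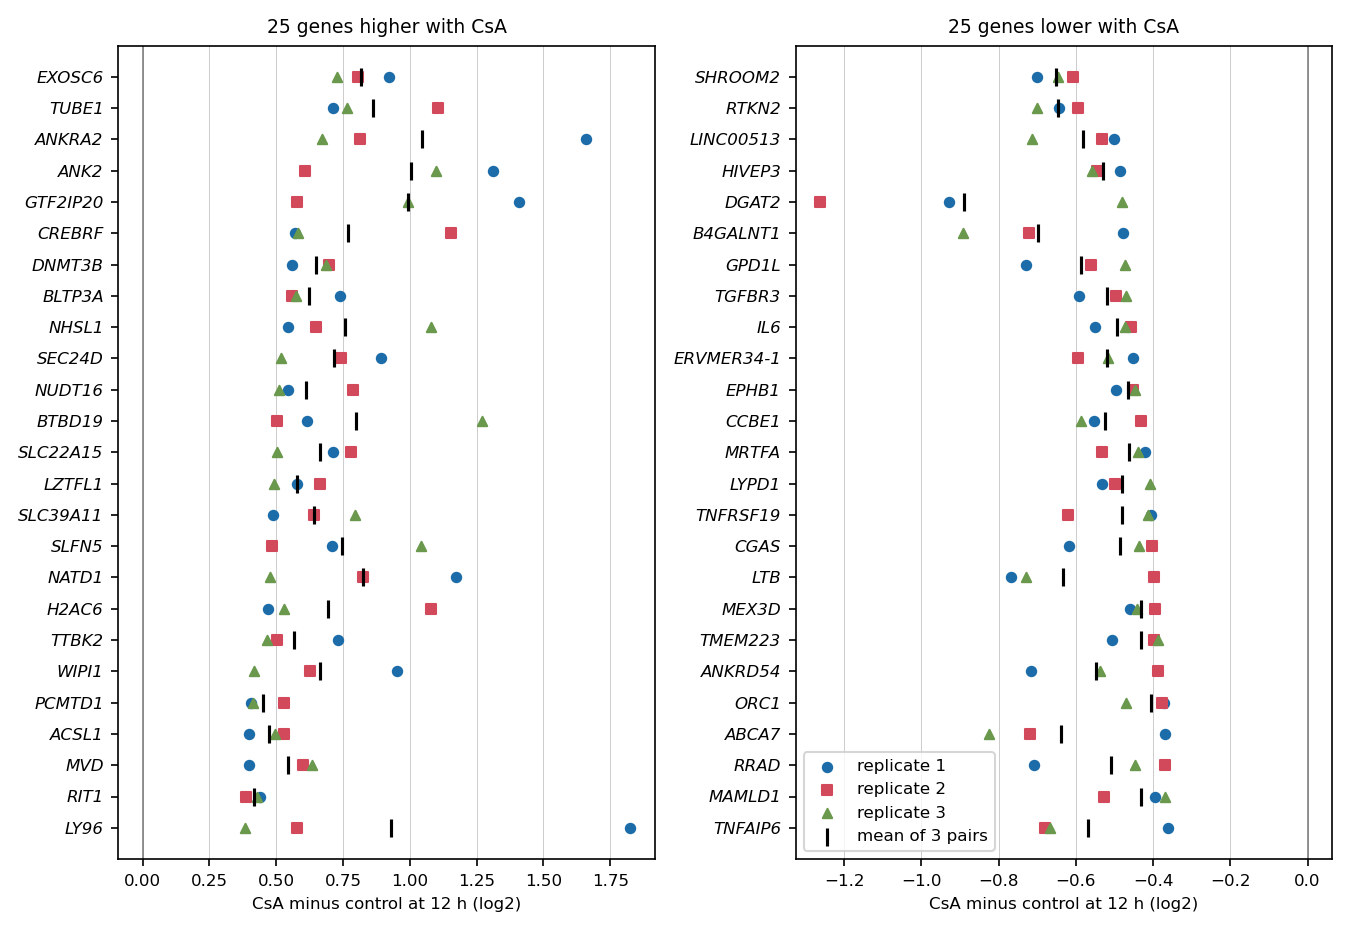
Pair differences at 12 h (log2, horizontal axis) of the 25 higher and the 25 lower genes outside the 2 lists set aside, ordered by the smallest pair difference, with 1 symbol per replicate number and a bar at the mean. EXOSC6 and SHROOM2 lead with pairs close together, while ANKRA2, LY96 and DGAT2 have pairs far apart.

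EXOSC6, a subunit of the RNA exosome that degrades and trims RNA, had the largest smallest pair difference upward. Its levels were 8.96, 8.35 and 8.54 on the CsA arrays of replicates 1, 2 and 3 and 8.04, 7.54 and 7.81 on the control arrays. The CsA arrays were all above the control arrays, and the order of the replicates was the same in both groups. The difference was 0.82 ± 0.10 (SD, n = 3 pairs), 1.76-fold, with an adjusted p of 0.00541 in limma's trend fit and 0.554 with the block over 12 arrays. Both other probe sets of EXOSC6 were higher in all pairs too, one by 1.18, 0.63 and 0.64, and the other by 0.0036, 0.09 and 0.28.

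In this and the next paragraphs the 25 genes are ordered by their known roles, chosen after their values were seen and with no list counted. TUBE1, the epsilon-tubulin of centrioles, was at 7.91, 7.39 and 7.68 with CsA and at 7.20, 6.28 and 6.91 in control. The groups did not overlap, and replicate 2 was the lowest in both. The difference was 0.86 ± 0.21, 1.82-fold (limma trend fit, adjusted p = 0.02). LZTFL1, a regulator of the BBSome that sorts membrane proteins in cilia, was at 8.76, 8.59 and 8.46 with CsA and at 8.18, 7.93 and 7.97 in control, again with no overlap. Its difference was 0.58 ± 0.09, 1.49-fold (limma trend fit, adjusted p = 0.0185), and a second probe set gave 0.46, 0.59 and 0.43. TTBK2, a kinase that starts the growth of cilia, differed by 0.57 ± 0.14 and was not called (adjusted p = 0.0814), and neither of its 2 other probe sets was higher in all pairs.

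CREBRF, a factor that restrains the ER-bound transcription factor CREB3, was at 6.67, 6.11 and 6.11 with CsA and at 6.10, 4.96 and 5.53 in control. All CsA arrays were above all control arrays, by a narrow gap, and replicate 2 moved most. The difference was 0.77 ± 0.33 and was not called (limma trend fit, adjusted p = 0.0665), and 3 of its 4 other probe sets were higher in all pairs. DNMT3B, which sets new DNA methylation, was at 9.47, 8.94 and 8.82 with CsA and at 8.90, 8.24 and 8.13 in control. Here the groups overlapped, but each pair differed by 0.56 to 0.70, and the gene was called (0.65 ± 0.08, 1.57-fold, adjusted p = 0.00784). H2AC6, a histone H2A gene, differed by 0.69 ± 0.34 and was not called (adjusted p = 0.0902), and of the 10 tested histones 5 were lower and 1 higher in all pairs. ANKRA2, an ankyrin repeat protein that binds class IIa histone deacetylases and the tail of megalin, had the largest mean difference of the 25, 1.05 ± 0.53, and was not called (adjusted p = 0.0642).

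SEC24D, a cargo adaptor of COPII vesicles, WIPI1, which binds lipid on growing autophagosomes, and MVD and ACSL1, enzymes of sterol synthesis and of fatty acid activation, are described with their lists. ANK2, which ties membrane proteins to spectrin, differed by 1.01 ± 0.36, 2.01-fold (limma trend fit, adjusted p = 0.0364), with overlapping groups, and its other probe set was not higher in all pairs. BLTP3A, a lipid transfer protein, differed by 0.62 ± 0.10 (adjusted p = 0.00825). The transporters SLC22A15 for organic cations and SLC39A11 for zinc differed by 0.66 ± 0.14 and 0.64 ± 0.15 and were not called. RIT1, a GTPase of the RAS family, was called at 0.42 ± 0.03, the smallest mean of the 25, although its groups overlapped, with replicate 3 near 1 unit below the others in both groups. All 4 other probe sets of RIT1 were higher in all pairs.

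The remaining higher genes were of diverse kinds. SLFN5, a Schlafen protein induced by interferon, was at 8.18, 7.85 and 8.21 with CsA and at 7.47, 7.37 and 7.17 in control. The groups were apart, and the gene was called (0.74 ± 0.28, 1.68-fold, limma trend fit, adjusted p = 0.0379), with 4 of its 5 other probe sets higher in all pairs. LY96, the partner of TLR4 in sensing endotoxin, differed by 1.83, 0.58 and 0.38, so that replicate 1 carried most of its mean, and it was not called. NHSL1, which restrains actin-driven protrusion, NUDT16, a nucleotide and RNA cap hydrolase, BTBD19 and NATD1 differed by 0.76 ± 0.28, 0.61 ± 0.15, 0.80 ± 0.41 and 0.83 ± 0.35, none of them called. The other probe set of NHSL1 was higher in all pairs, and that of NUDT16 was not. PCMTD1 was called at 0.45 ± 0.07 (adjusted p = 0.0359), while neither of its 2 other probe sets was higher in all pairs. GTF2IP20 is a pseudogene of GTF2I, and near-identical copies may share its probes, so its difference of 0.99 ± 0.42 is uncertain. Across the 14 of the 25 genes with other probe sets past the filter, 19 of 27 such probe sets (70.4%) were higher in all pairs and none was lower. The share higher was 18.1% over all tested genes and 40.6% over the genes higher in all pairs. The 27 probe sets read the same RNA samples on which the genes were chosen, so they are no independent reading of the difference.

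Among the lower genes, SHROOM2, an actin-binding protein of epithelial junctions, had the largest smallest pair difference. Its levels were 5.91, 6.22 and 5.95 with CsA and 6.61, 6.83 and 6.59 in control. The CsA arrays were all below the control arrays, and replicate 2 was the highest in both groups. The difference was -0.65 ± 0.05, 1.57-fold lower (limma trend fit, adjusted p = 0.0362). RTKN2 was at 4.89, 4.92 and 4.65 with CsA and at 5.53, 5.51 and 5.35 in control, near the filter level of 4 and with no overlap (-0.65 ± 0.05, adjusted p = 0.0499). MRTFA, the actin-sensing partner of the transcription factor SRF, differed by -0.46 ± 0.06 and was not called (adjusted p = 0.0869).

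The 25 lower genes are likewise ordered by known role, with no list counted. IL6, a cytokine, was at 8.74, 7.50 and 8.73 with CsA and at 9.29, 7.95 and 9.20 in control. The groups overlapped because replicate 2 was low in both, but the pairs differed by -0.55, -0.46 and -0.47, and the gene was called (1.41-fold lower, limma trend fit, adjusted p = 0.02). TNFAIP6, a hyaluronan-binding protein made in inflammation, was at 7.84, 7.98 and 8.70 with CsA and at 8.20, 8.66 and 9.37 in control. Replicate 1 was the lowest and replicate 3 the highest in both groups, so that the groups overlapped, and it was called (-0.57 ± 0.18, adjusted p = 0.0333), with its other probe set lower in all pairs. LTB, a membrane cytokine of the TNF family, was at 6.97, 6.86 and 7.02 with CsA and at 7.74, 7.26 and 7.75 in control, with no overlap (-0.63 ± 0.20, adjusted p = 0.0482). TNFRSF19, a receptor of the TNF receptor family, was also called with arrays apart (-0.48 ± 0.12, adjusted p = 0.0485), as was TNFRSF21, known as death receptor 6, outside the 25 (-0.32 ± 0.03, adjusted p = 0.02). CGAS, the sensor of cytosolic DNA, differed by -0.49 ± 0.12 and was not called (adjusted p = 0.0713), and its other probe set was higher in all pairs.

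EPHB1, a receptor for ephrin-B ligands, differed by -0.49, -0.45 and -0.45 and was called (limma trend fit, adjusted p = 0.0359), with both other probe sets lower in all pairs. CCBE1, a secreted protein that helps activate VEGF-C, was called at -0.52 ± 0.08 (adjusted p = 0.0241), and both its other probe sets were lower in all pairs. RRAD, a RAS-like GTPase that restrains calcium channels, was at 10.17, 10.56 and 10.61 with CsA and at 10.88, 10.93 and 11.06 in control. Its groups did not overlap, and it was called (-0.51 ± 0.18, 1.42-fold lower, adjusted p = 0.0265). TGFBR3, the TGF-beta coreceptor betaglycan, differed by -0.52 ± 0.07 and was not called, and its other probe set was not lower in all pairs.

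DGAT2, which completes triglyceride synthesis, had the largest mean difference, -0.89 ± 0.39, with levels of 5.03, 4.96 and 4.97 under CsA and 5.96, 6.22 and 5.45 in control. The CsA arrays were nearly level and all below the control arrays, and the gene was not called (limma trend fit, adjusted p = 0.0581). Its other probe set differed by -1.04, -1.48 and -1.22. B4GALNT1, a ganglioside synthase, differed by -0.70 ± 0.21, ABCA7, a lipid transporter, by -0.64 ± 0.24, and GPD1L, a relative of glycerol phosphate dehydrogenase, by -0.59 ± 0.13, none of them called. ORC1, which marks origins of DNA replication, differed by -0.41 ± 0.06 with arrays apart and was not called (adjusted p = 0.0634). HIVEP3, LINC00513, ERVMER34-1, LYPD1, MEX3D, TMEM223, ANKRD54 and MAMLD1 differed by between -0.58 and -0.43 and were not called. The other probe set of HIVEP3 was not lower in all pairs. Of 10 other probe sets in 8 of the 25 genes, 7 (70.0%) were lower in all pairs and 1 was higher. The share lower was 18.1% over all tested genes and 34.0% over the genes lower in all pairs. These 10 too read the RNA samples on which the genes were chosen.

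**Figure D2:**
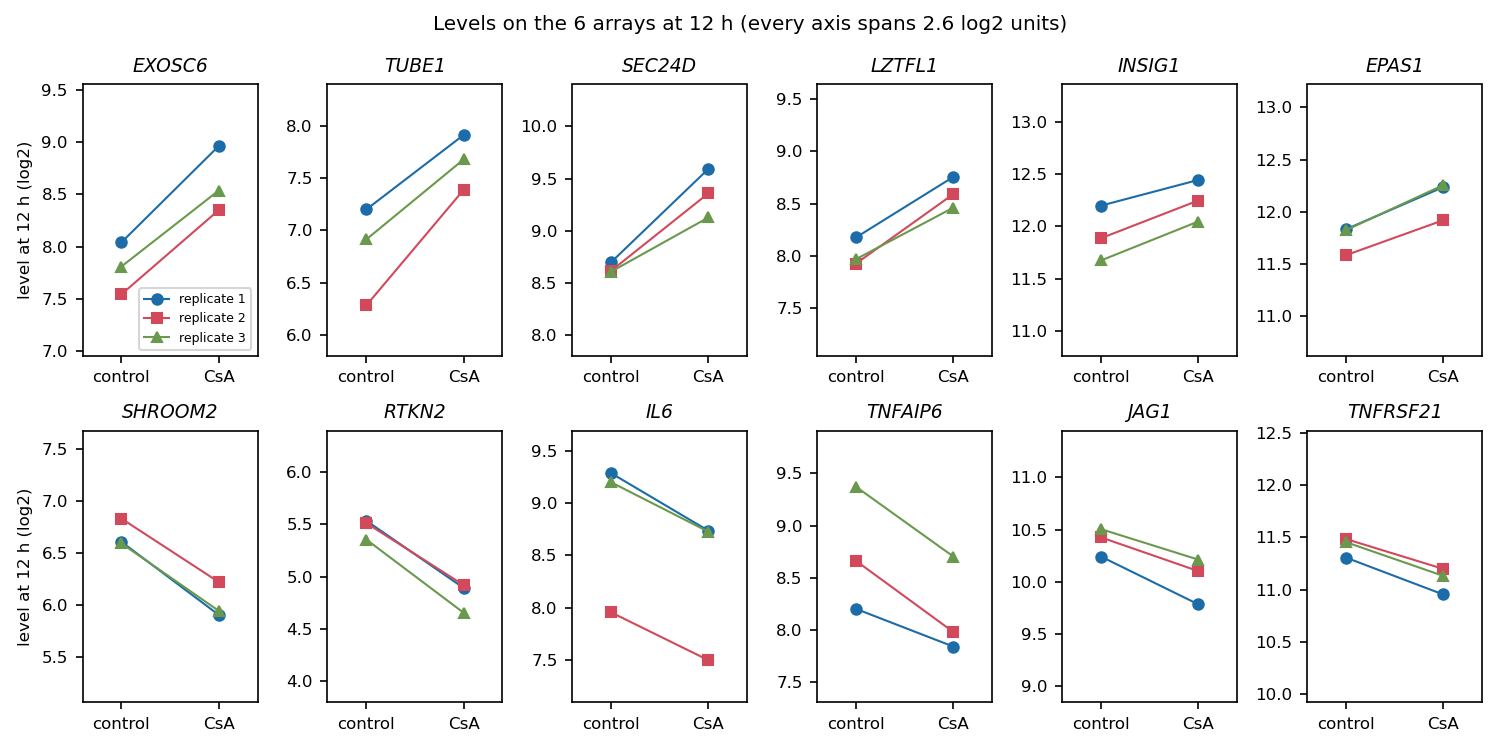
Levels (log2, vertical axis, each spanning 2.6 units) of 12 genes on the 3 control and 3 CsA arrays at 12 h, with lines joining arrays of 1 replicate number. In EXOSC6, SEC24D and SHROOM2 the groups do not overlap, whereas IL6 and TNFAIP6 overlap between groups although every line falls.

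The described gene lists were counted against all tested genes, of which 18.9% were higher and 22.3% lower in all pairs with a median difference of -0.01. Carriers between ER and Golgi were mostly higher. Of 47 tested genes of COPI, COPII and Golgi traffic, 21 (44.7%) were higher in all pairs and 1 lower, with a median of 0.09, and 4 were called, all upward. SEC24D was at 9.59, 9.36 and 9.13 with CsA and at 8.70, 8.62 and 8.61 in control. The 3 control arrays were nearly level and the CsA arrays all above them (0.72 ± 0.19, 1.64-fold, limma trend fit, adjusted p = 0.0142). SEC23B, its partner in the inner COPII coat, was at 11.18, 11.18 and 10.98 with CsA and at 10.78, 10.76 and 10.68 in control, also apart (0.37 ± 0.06, adjusted p = 0.02). TMED10, a cargo receptor of the early secretory pathway, was at 12.26, 12.20 and 12.17 with CsA and at 11.89, 11.81 and 11.86 in control, apart as well (0.36 ± 0.04, adjusted p = 0.00883). GORASP2, which helps stack Golgi cisternae, differed by 0.26 ± 0.02 (adjusted p = 0.0482). Outside the list, ERP44, which retrieves thiol-linked proteins to the ER, and PRRC1, a protein of ER exit sites, were also called higher, by 0.32 ± 0.07 and 0.31 ± 0.08.

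Sterol genes were the list with the largest share upward. Of 24 tested genes of cholesterol synthesis and uptake, 16 (66.7%) were higher in all pairs and 3 lower, with a median of 0.14, and 3 were called. INSIG1, which holds SREBP factors in the ER, was at 12.44, 12.25 and 12.05 with CsA and at 12.20, 11.89 and 11.67 in control. The groups overlapped, but the pairs differed by 0.25, 0.36 and 0.37 (0.33 ± 0.07, limma trend fit, adjusted p = 0.02). STARD4, a carrier of cholesterol between membranes, differed by 0.43 ± 0.09 (adjusted p = 0.022) and HSD17B7, an enzyme of sterol synthesis, by 0.28 ± 0.04 (adjusted p = 0.0482). MVD, which makes isopentenyl diphosphate, had the largest mean difference, 0.54 ± 0.13, and narrowly missed a call (adjusted p = 0.0504).

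Fatty acid and lipid storage genes were more mixed. Of 21 tested members 11 (52.4%) were higher in all pairs and 4 (19.0%) lower, with a median of 0.09. ACSL1, which activates long fatty acids, was at 12.11, 12.22 and 10.97 with CsA and at 11.71, 11.69 and 10.47 in control. Replicate 3 was over 1 unit lower in both groups, so the groups overlapped, but the pairs differed by 0.40, 0.53 and 0.50 (limma trend fit, adjusted p = 0.00587). LPIN1, a phosphatidate phosphatase, and SCD, which desaturates fatty acids, were called at 0.45 ± 0.11 (adjusted p = 0.0213) and 0.26 ± 0.10 (adjusted p = 0.0353). DGAT2 went the other way, as given above.

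Autophagy and lysosome genes had 16 of 43 members (37.2%) higher and 5 (11.6%) lower in all pairs, with a median of 0.07. WIPI1 was at 8.93, 8.41 and 8.79 with CsA and at 7.98, 7.79 and 8.38 in control. The highest control array lay just below the lowest CsA array, and the gene was called (0.67 ± 0.27, 1.59-fold, limma trend fit, adjusted p = 0.0425), with its other probe set higher by 0.61, 0.65 and 0.51. ATG9A, the membrane protein that seeds autophagosomes, and GLA, a lysosomal galactosidase, were lower in all pairs by a mean of -0.21 and -0.25, neither called. Among hypoxia targets 8 of 20 (40.0%) were higher and 4 lower in all pairs, with a median of 0.08. EPAS1, the oxygen-regulated factor HIF-2 alpha, was at 12.23, 11.92 and 12.25 with CsA and at 11.83, 11.58 and 11.82 in control, with no overlap (0.39 ± 0.05, adjusted p = 0.0084). PDK1, which inhibits pyruvate dehydrogenase, BHLHE40, a repressor of clock genes, and NDRG1 differed by 0.35 ± 0.04, 0.30 ± 0.04 and 0.29 ± 0.07. None of them was called. Glycolysis genes did not share the direction, with 3 of 22 higher and 5 lower in all pairs.

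**Figure D3:**
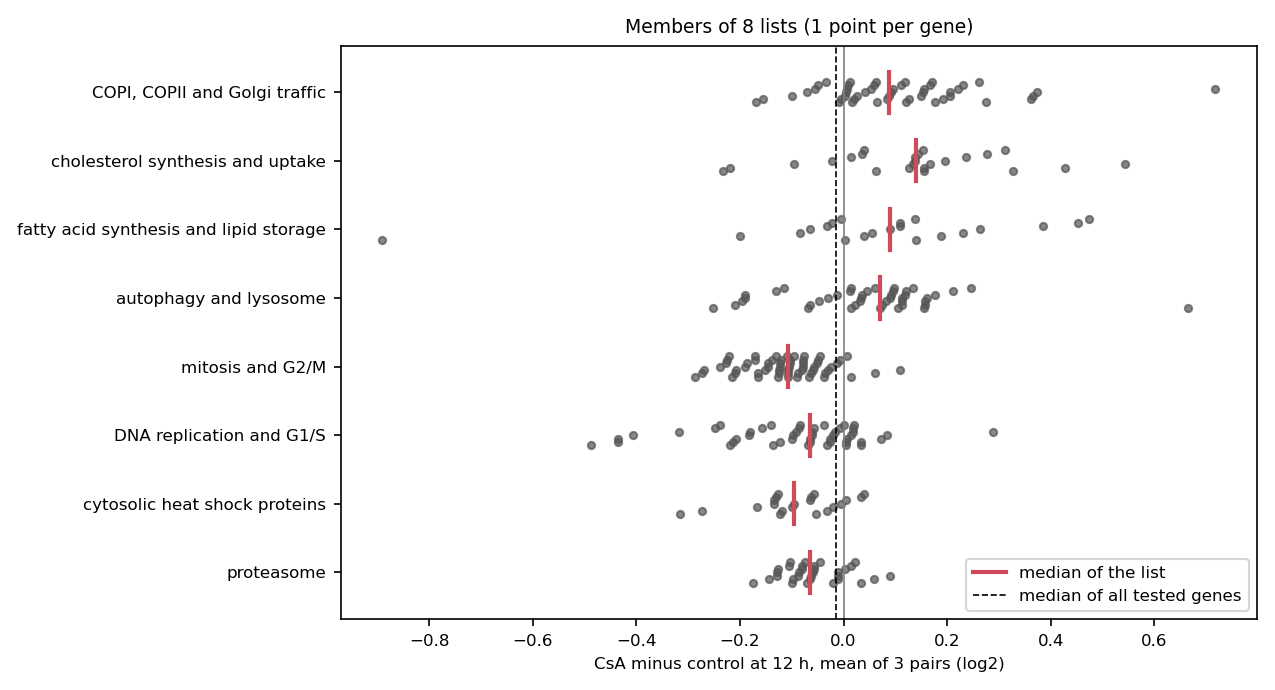
Mean pair difference at 12 h (log2, horizontal axis) of every tested member of 8 lists, 1 point per gene, with the list median as a red bar and the median of all tested genes, -0.01, as a dashed line. The mitosis members are packed just below 0 with few above it, while the traffic and sterol members lie mostly above 0.

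Cell division genes were lower in all pairs more often than higher, with no call. Of 59 tested genes of mitosis and the G2/M phase, 35 (59.3%) were lower and 1 (1.69%) higher in all pairs, and 55 had a mean below 0, with a median of -0.11. The medians of the 3 pairs were -0.17, -0.04 and -0.12, so pair 2 was nearest 0. KIF4A, a kinesin on chromosomes, was at 9.64, 10.12 and 9.85 with CsA and at 9.91, 10.32 and 10.05 in control. Replicate 2 was the highest in both groups and the groups overlapped (-0.22 ± 0.04, limma trend fit, adjusted p = 0.0915). ESPL1, the protease separase that parts sister chromatids, was at 8.73, 8.85 and 8.75 with CsA and at 9.08, 8.99 and 9.06 in control, with no overlap (-0.27 ± 0.11, adjusted p = 0.108). SPC25, of the kinetochore, and CDCA3, which helps trigger mitotic entry, differed by -0.21 ± 0.07 and -0.22 ± 0.05. Genes of DNA replication and the G1/S step had 18 of 47 (38.3%) lower and 5 higher in all pairs, with a median of -0.06. POLA2, a subunit of the priming polymerase, CLSPN, of the replication checkpoint, and CCNE1, cyclin E, differed by -0.49 ± 0.22, -0.43 ± 0.17 and -0.32 ± 0.10, none of them called.

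Protein quality control in the cytosol lay lower. Of 21 tested cytosolic heat shock genes 12 (57.1%) were lower and 0 higher in all pairs, with a median of -0.10. HSPA4L, a nucleotide exchange factor of Hsp70, was at 8.57, 8.56 and 8.47 with CsA and at 8.89, 8.73 and 8.93 in control, with no overlap (-0.32 ± 0.14, limma trend fit, adjusted p = 0.103). FKBP4, an immunophilin that works with Hsp90, differed by -0.27 ± 0.07, CHORDC1, an Hsp90 cochaperone, by -0.17 ± 0.09 and HSPE1, a cofactor of the mitochondrial chaperonin that the list also holds, by -0.13 ± 0.04. Arrays were apart in each of these 3 genes as well. The proteasome list had 20 of 31 members (64.5%) lower and 3 higher in all pairs, with a median of -0.07. PSMD3 and PSMD12, of the regulatory particle, differed by -0.18 ± 0.03 and -0.10 ± 0.02. No member of either list was called.

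Other housekeeping lists were lower in all pairs more often than higher, by small amounts and with no calls. They were respiratory chain subunits with 15 of 34 lower and 0 higher (median -0.03), ribosome biogenesis with 16 of 36 lower and 3 higher (median -0.05) and splicing factors with 17 of 45 lower and 2 higher (median -0.04). NDUFS3, a subunit of complex I, differed by -0.24 ± 0.08, BYSL, a 40S assembly factor, by -0.21 ± 0.07, and SNRNP70, of the U1 particle, by -0.25 ± 0.10. Cytosolic ribosomal proteins did not follow, with 5 of 26 higher and 0 lower. Zinc finger factors of the KRAB family, repressors of transposable elements, lay the other way with 15 of 49 (30.6%) higher and 4 lower in all pairs and a median of 0.06. The list also holds ZNF507, a zinc finger protein without a KRAB domain. ZNF37A and ZNF507 differed by 0.23 ± 0.04 and 0.20 ± 0.07, neither called. Outside these lists, MRPL33 and MRPS5, proteins of the mitochondrial ribosome, and MTERF4, a factor of the mitochondrial MTERF family, were called lower. MRPL33 differed by -0.26 ± 0.04 (limma trend fit, adjusted p = 0.0359), MRPS5 by -0.27 ± 0.02 (adjusted p = 0.0485) and MTERF4 by -0.37 ± 0.08 (adjusted p = 0.0482).

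**Figure D4:**
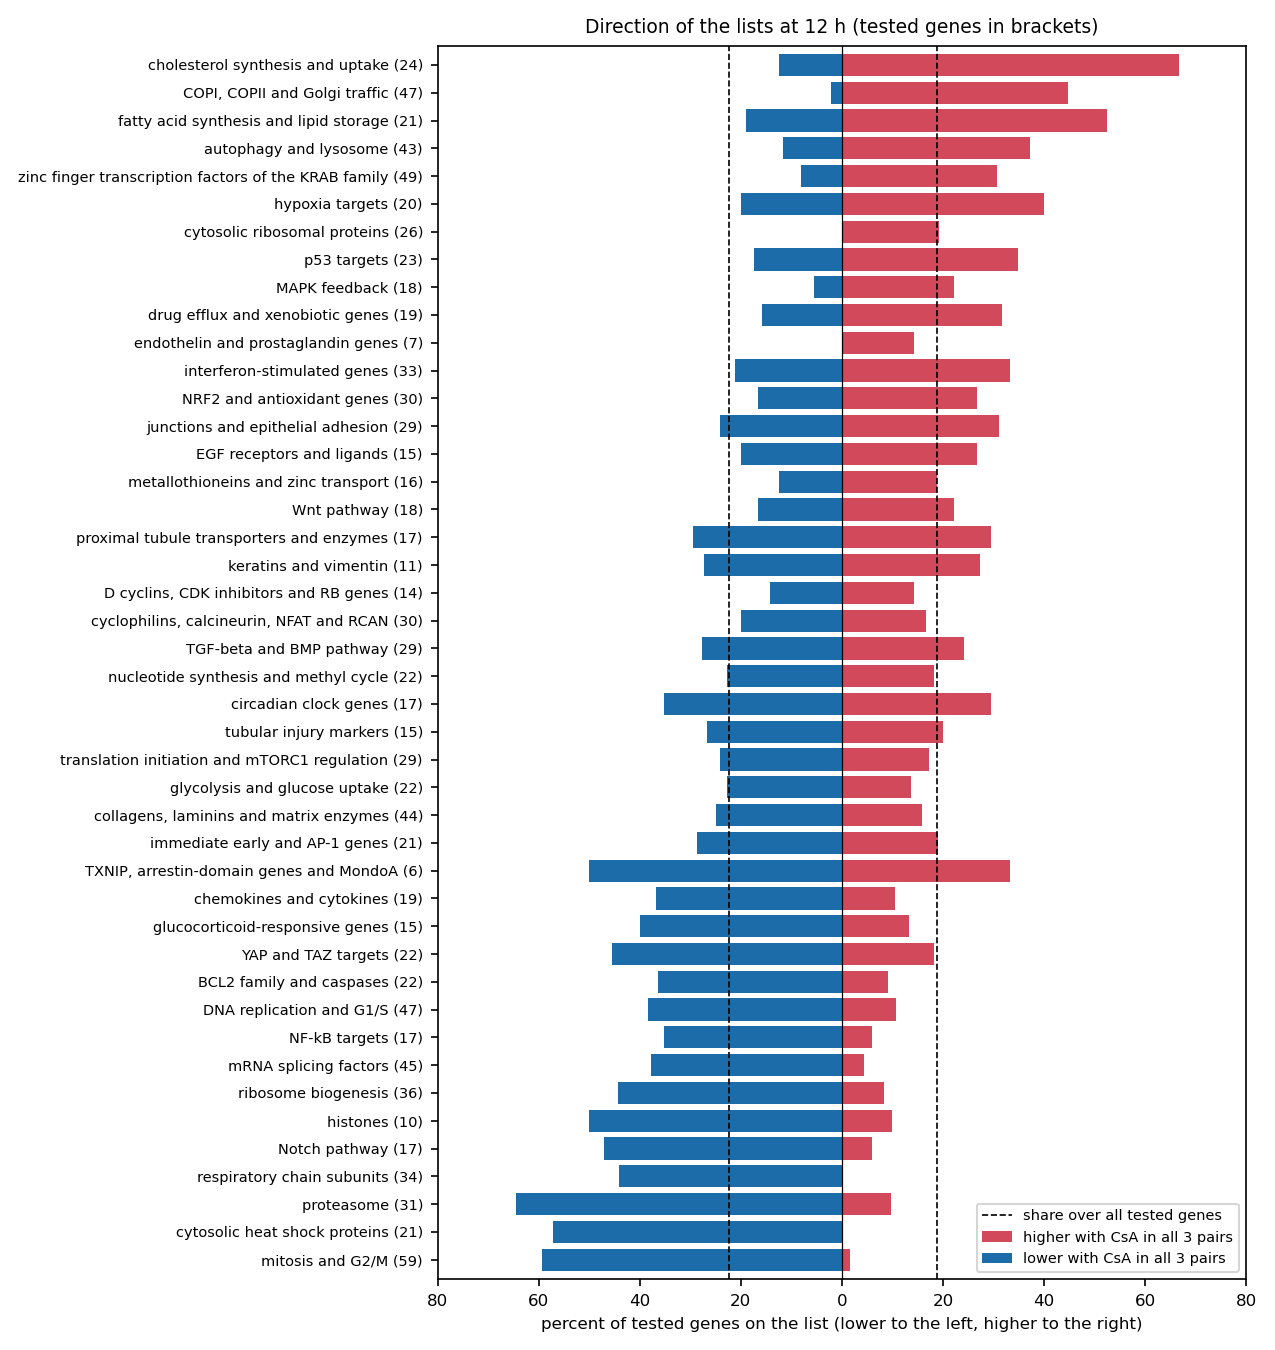
Percent of the tested genes on each of 44 lists that were higher (red, to the right) or lower (blue, to the left) with CsA in all 3 pairs at 12 h, with the shares over all tested genes, 18.9% and 22.3%, as dashed lines. Cholesterol synthesis reaches 66.7% upward and the proteasome 64.5% downward, while most lists in the middle lie near the dashed lines on both sides.

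Inflammatory and interferon lists parted. Of 19 tested genes on the list of chemokines and cytokines, 7 (36.8%) were lower and 2 higher in all pairs, with a median of -0.09. The 2 calls on the list were IL6 and TNFAIP6, and LTB, called lower above, was not among them. CXCL5, a neutrophil chemokine, differed by -0.29 ± 0.13 and was not called. NF-kB targets had 6 of 17 lower and 1 higher, with a median of -0.10. RELB, an NF-kB subunit, differed by -0.61 ± 0.33 with 2 of its 3 CsA arrays below 4, and NFKBIA, the inhibitor that NF-kB itself induces, by -0.24 ± 0.12, neither called. Interferon-stimulated genes were divided, with 11 of 33 (33.3%) higher and 7 (21.2%) lower and a median of 0.01. The 4 members with the steadiest differences were all higher and were not called: IFIT2 by 0.59 ± 0.23 (limma trend fit, adjusted p = 0.0504), IFIT1 by 0.40 ± 0.12 (adjusted p = 0.0522), IFIT3 by 0.45 ± 0.24 (adjusted p = 0.0694) and IFI44 by 0.53 ± 0.34 (adjusted p = 0.125). The IFIT proteins bind viral RNA or sit in the same complex. IFIT1 was at 9.20, 9.29 and 8.30 with CsA and at 8.91, 8.91 and 7.77 in control, with replicate 3 about 1 unit lower in both groups and the groups overlapping.

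Among developmental pathways, Notch genes had 8 of 17 (47.1%) lower and 1 higher in all pairs, with a median of -0.05. JAG1, a Notch ligand, was at 9.78, 10.10 and 10.21 with CsA and at 10.24, 10.43 and 10.51 in control. Its CsA arrays were all below its control arrays, by a narrow gap (-0.36 ± 0.09, 1.28-fold lower, limma trend fit, adjusted p = 0.0359). HES1 and HES4, repressors that Notch induces, differed by -0.26 ± 0.13 and -0.35 ± 0.17, and NOTCH3, a receptor, by -0.24 ± 0.13, none of them called. YAP and TAZ targets had 10 of 22 (45.5%) lower and 4 higher, with F3, tissue factor, at -0.29 ± 0.07 and TEAD4, a partner of YAP, at -0.28 ± 0.06, neither called. In the TGF-beta and BMP list 7 of 29 were higher and 8 lower. Its BMP antagonist GREM1 was called higher (0.31 ± 0.08, adjusted p = 0.0456), while ID1, a BMP target, differed by -0.26 ± 0.03 and was not called (adjusted p = 0.0536).

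Glucocorticoid-responsive genes, measured in a medium that held hydrocortisone in all groups, gave calls in both directions. TSC22D3, known as GILZ, was at 8.56, 8.16 and 8.68 with CsA and at 7.94, 7.80 and 8.12 in control, with the groups apart (0.51 ± 0.14, 1.42-fold, limma trend fit, adjusted p = 0.0377). SGK1, a kinase that raises sodium transport, was at 12.55, 12.51 and 12.95 with CsA and at 12.82, 12.86 and 13.17 in control, overlapping (-0.28 ± 0.07, adjusted p = 0.0237). Over the list 2 of 15 were higher and 6 lower in all pairs. Cyclophilins, which bind CsA, were listed together with calcineurin, NFAT and RCAN genes, and this list showed no common direction. Of its 30 tested genes 5 were higher and 6 lower in all pairs, with a median of 4.5e-05 and no call. PPP3CB and PPP3CA, catalytic subunits of calcineurin, differed by -0.22 ± 0.12 and -0.23 ± 0.18. Proximal tubule transporters and enzymes had 5 of 17 higher and 5 lower. DPP4, a brush border peptidase, differed by 0.20 ± 0.06 and SLC3A1, a subunit of the cystine transporter, by -0.27 ± 0.12, neither called.

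Further calls lay outside every group above. Upward, IGFN1 differed by 0.71 ± 0.33, DOCK11, an activator of CDC42, by 0.47 ± 0.15, TMEM243 by 0.43 ± 0.09 and IBTK, which inhibits Bruton's kinase, by 0.37 ± 0.06. RBCK1, a subunit of the linear ubiquitin ligase, differed by 0.35 ± 0.08 (limma trend fit, adjusted p = 0.0258), TES, a focal adhesion protein, by 0.34 ± 0.08 and FAM3C, a secreted factor, by 0.31 ± 0.06. Others called upward were AMIGO2, IGDCC4, NT5C2, PLPP5, PYGB and THAP9-AS1, at 0.27 to 0.49. Downward, SLN, sarcolipin, differed by -0.40 ± 0.13 and CDKN2AIP, a regulator of the ARF and p53 pathway, by -0.41 ± 0.15. MAPKAPK2, a kinase below p38, differed by -0.37 ± 0.06 (adjusted p = 0.0321), and its arrays were apart, at 9.14, 9.34 and 9.49 with CsA and 9.50, 9.77 and 9.80 in control. TM4SF1 and TM4SF18, related tetraspanin-like proteins, were both called lower, by -0.30 ± 0.06 and -0.29 ± 0.08, each with arrays apart. Others called downward were ASPHD1, LRRN4, PRSS23, SAC3D1 and TUBA4A, at -0.39 to -0.27.

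Promoter sequence was read from RefSeq windows (GRCh38.p14) of 250 bases before to 50 after the start of a gene, held for 8805 of the 10650 tested genes. Short motifs were searched on both strands, and a match is a description of letters only. The ER stress element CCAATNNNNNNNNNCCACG was in 6 of 58 promoters (10.3%) of the genes on the lists set aside that were at least 0.25 higher in all pairs. It was in 0 of 80 promoters of the equally higher genes outside the lists, against 0.159% of all promoters. The composite element of ATF4 and C/EBP, TGATGNAA, was in 15.5%, 5.0% and 1.68% of these 3 sets. The E-box CACGTG, which the MiT/TFE factors of lysosome genes, MYC and clock factors can bind, was in 15.5% and 18.8% of the higher sets, in 13.3% of the 83 lower genes outside and in 10.8% of all promoters. It was in 4 of the 20 promoters held for the 25 higher genes, those of CREBRF, LZTFL1, NATD1 and SLC39A11. Of these, 3 are shown over the 200 bases before the start, 5′ to 3′ in the direction of the gene and with the E-box in capitals, because they place the same letters in genes that were higher together. LZTFL1 is at chr3:45842120-45842319 (reverse strand), CREBRF at chr5:173056152-173056351 (forward) and NATD1 at chr17:21253411-21253610 (reverse).
LZTFL1: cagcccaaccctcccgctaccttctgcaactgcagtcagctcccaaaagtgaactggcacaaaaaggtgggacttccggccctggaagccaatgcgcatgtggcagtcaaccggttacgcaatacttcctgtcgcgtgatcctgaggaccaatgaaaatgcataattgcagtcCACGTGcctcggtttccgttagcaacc
CREBRF: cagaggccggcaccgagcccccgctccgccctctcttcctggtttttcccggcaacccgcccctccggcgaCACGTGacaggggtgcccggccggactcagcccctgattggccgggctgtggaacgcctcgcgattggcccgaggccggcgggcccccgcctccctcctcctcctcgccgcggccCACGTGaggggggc
NATD1: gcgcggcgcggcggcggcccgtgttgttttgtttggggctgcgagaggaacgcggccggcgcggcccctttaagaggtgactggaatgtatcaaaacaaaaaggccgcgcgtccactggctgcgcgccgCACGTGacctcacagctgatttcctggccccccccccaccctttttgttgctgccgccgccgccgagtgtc

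CREBRF holds the E-box at a pair of places, both in the bases shown. NATD1 holds it at offsets of -234 and -71 from the start, of which -234 lies outside the bases shown. LZTFL1 holds it once, and in LZTFL1 and CREBRF an E-box is close to the start. In INSIG1, TMED10, FAM3C and TMEM243, all called higher, the window held an E-box too, as it did in TNFRSF21, called lower. Among the 25 lower genes it was in MEX3D, LYPD1 and LINC00513, 3 of 19 promoters held, against 4 of 20 among the 25 higher ones.

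The interferon list and the mitosis list were searched for the motif that each is known for. TTTCNNTTTC, the core of the interferon-stimulated response element, was in 18 of 27 promoters (66.7%) of the interferon list and in 2.66% of all promoters. Among the 80 higher genes outside the lists set aside it was in 3.75%. The promoters of IFIT1 at chr10:89392423-89392622 and IFIT3 at chr10:89327797-89327996, both on the forward strand, are shown for the 200 bases before the start with the element in capitals, because each holds it more than once.
IFIT1: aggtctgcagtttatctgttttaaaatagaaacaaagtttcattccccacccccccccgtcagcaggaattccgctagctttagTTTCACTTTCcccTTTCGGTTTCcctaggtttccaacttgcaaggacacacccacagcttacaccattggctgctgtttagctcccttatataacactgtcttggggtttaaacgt
IFIT3: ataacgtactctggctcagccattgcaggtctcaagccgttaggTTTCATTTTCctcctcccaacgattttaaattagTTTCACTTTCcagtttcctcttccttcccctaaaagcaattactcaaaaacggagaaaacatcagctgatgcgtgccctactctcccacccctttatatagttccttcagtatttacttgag

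TTTGAA, the cell cycle homology region that holds mitotic genes silent early in the cycle, was in 37 of 52 promoters (71.2%) of the mitosis list and in 9.45% of all promoters, and in 9.64% of the 83 lower genes outside the lists. KIF4A at chrX:70289904-70290103 (forward strand) and ESPL1 at chr12:53268099-53268298 (forward strand), 2 of the 4 steadiest mitosis genes, hold it close to the start, in capitals.
KIF4A: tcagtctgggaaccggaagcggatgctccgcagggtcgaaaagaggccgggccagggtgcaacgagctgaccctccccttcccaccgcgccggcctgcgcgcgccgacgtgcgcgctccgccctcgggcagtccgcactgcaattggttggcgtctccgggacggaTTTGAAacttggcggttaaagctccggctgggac
ESPL1: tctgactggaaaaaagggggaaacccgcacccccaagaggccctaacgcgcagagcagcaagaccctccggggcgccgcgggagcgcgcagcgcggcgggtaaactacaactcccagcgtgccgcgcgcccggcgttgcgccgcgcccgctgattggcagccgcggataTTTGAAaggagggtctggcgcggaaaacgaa

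The arrays at 48 h, with controls of their own, gave the same genes a second reading. Of all tested genes 13.3% were higher and 16.2% lower in all 3 pairs at 48 h. Of the 2016 genes higher at 12 h, 296 (14.7%) were higher and 281 (13.9%) lower in all pairs at 48 h, and of the 2380 lower ones 285 (12.0%) were higher and 406 (17.1%) lower. Among the 25 higher genes 4 were higher and 3 lower at 48 h, and among the 25 lower 4 were higher and 6 lower. CREBRF, LZTFL1, PCMTD1 and NATD1 were the 4 higher at both times, by 0.36, 0.15 and 0.47 in the 48 h pairs for CREBRF and by 0.32, 0.16 and 0.33 for LZTFL1. IL6, lower by 0.49 at 12 h, differed by -1.32, -0.36 and -1.84 at 48 h, and CCBE1 by -0.69, -0.14 and -0.19.

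Replicate 3 at 48 h stood apart with CsA and, less so, in control. The counts were therefore also made on pairs 1 and 2 alone, a choice made after seeing the data. Over all tested genes 27.4% were then higher and 27.3% lower in both pairs. Of the 94 genes outside the lists that were at least 0.25 higher at 12 h, 37.2% were higher and 14.9% lower, and of the 99 lower ones 21.2% were higher and 39.4% lower. For the 25 higher genes the shares were 44.0% and 12.0%, and for the 25 lower ones 16.0% and 44.0%. A test of the difference itself, the effect at 48 h minus the effect at 12 h, called 0 genes in limma without the block (164 at an unadjusted p under 0.05, smallest adjusted p 1.00) and 0 with it (967, smallest adjusted p 0.118).

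**Figure D5:**
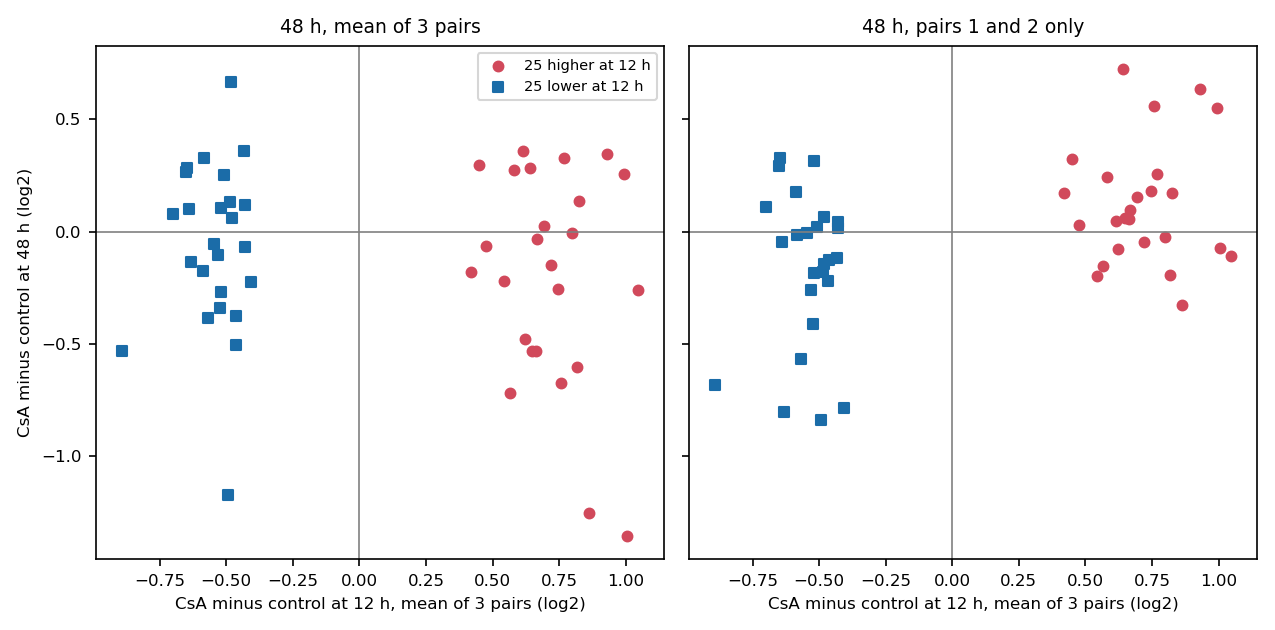
Mean difference between CsA and control at 48 h (log2, vertical axis) against that at 12 h (log2, horizontal axis) for the 25 higher and 25 lower genes at 12 h, over all 3 pairs at 48 h on the left and over pairs 1 and 2 on the right. On the left both sets spread to either side of 0, and on the right most of the higher set lies above 0 and most of the lower set below.

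The same lists were counted at 48 h. Cholesterol genes, 16 of 24 higher in all pairs at 12 h, were lower in all pairs at 48 h in 12 and higher in 2, with pair medians of -0.13, -0.07 and -0.53. Traffic genes were higher in 11 and lower in 1 of 47, with pair medians of 0.09, 0.06 and -0.08. Mitosis genes were lower in 10 and higher in 3 of 59, with pair medians of -0.21, -0.06 and 0.17, where the pair of replicate 3 went against the others. Heat shock genes were lower in 8 and higher in 1 of 21. Interferon-stimulated genes were higher in 11 and lower in 3 of 33. The difference between the times was not tested for these lists.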

How the data were processed

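Total RNA of HK-2 cells was labelled and hybridised to Affymetrix arrays, per the labels' protocols. The authors deposited log2 values, which were not normalised further here. Per the submitters' processing notes they were made with GCRMA, which corrects background by probe sequence and normalises by quantiles. No version or setting of it is given in the sources used here. Of 54675 probe sets, 62 controls were left out, and 41091 carried 1 gene symbol, 1801 several and 11721 none in the platform annotation. The probe set with the highest mean stood for each of 19775 genes, and the 10650 above 4 on at least 3 of the 12 arrays were tested in R 4.3.3 with limma 3.58.1 (Benjamini-Hochberg adjustment), without a block in the main design. Replicates are biological per the labels, which do not say what a number shares. At 12 h every pair of equal number correlated above 0.1, so the pairs were used as a block, with its values printed where calls changed. The number of arrays limits the precision. The fit was tested on simulated data. The 2 lists set aside, the other lists, motifs and the rule for named genes (up to 4 members per list, the 25 steadiest genes each way and all genes called with the block) were chosen with earlier results of these data known.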

Additional observations from a re-analysis of the deposited data

Results flagged for a closer look

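Of the 50 genes named by their steadiness at 12 h, 7 differed in the opposite direction in every pair at 48 h. Of all 2016 genes higher in all pairs at 12 h, 13.9% were lower in all pairs at 48 h. Of the 2380 lower ones, 12.0% were higher, so 7 of 50 is near the shares over all genes. TUBE1, higher at 12 h, had a mean difference of -1.25 at 48 h (log2), TTBK2 one of -0.72 and MVD one of -0.22. SHROOM2, lower at 12 h, had a mean difference of 0.26 at 48 h, RTKN2 one of 0.28, B4GALNT1 one of 0.0801 and LYPD1 one of 0.67. Replicate 3 stood apart at 48 h, most with CsA. Its pair gave -3.11 of TUBE1 against -0.25 and -0.40 in the other pairs. For TTBK2 it gave -1.84 against -0.02 and -0.30, and for LYPD1 1.87 against 0.13 and 0.0049. For SHROOM2 the 48 h pairs were 0.13, 0.46 and 0.21. The test of the difference between the times called none of the 7 in limma, with an adjusted p of 1.00 for each without the block and, with the block, of 0.27 at the lowest (MVD and SHROOM2).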

How the results depend on the processing

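The count of called genes at 12 h depended on the pairing and the moderation of the variance. Against 0 in limma without the block, the replicate block gave 3 over all 12 arrays, 5 over the 12 h arrays alone and 127 with a trend and robust moderation added, while the 12 h arrays without the block gave 1 and no filter on low values gave 1. Leaving out each array or pair gave 0, with 78 to 170 genes (arrays, no block) and 372 to 510 (pairs, block) at an unadjusted p under 0.05. With no filter, 6642 genes were higher and 2475 lower in all pairs, so that most genes added below the filter were higher; the cause was not tested. Counts at the steps of 0.25 (163 higher, 100 lower) and 0.5 (44 and 3) were smaller because fewer genes pass a larger step. Some list medians in the report moved by over 1.5 times. The NF-kB median of -0.10 was -0.05 without the pair of replicate 1 or 3. The hypoxia median of 0.08 was 0.04 without pair 2, and that of fatty acid synthesis, 0.09, was 0.06 without pair 2 and 0.04 with the mean of probe sets. The KRAB median of 0.06 was 0.12 without pair 1 and 0.04 without pair 2. The medians near 0 changed sign, from 0.01 to -0.015 without pair 1 for interferon-stimulated genes. That of the list of cyclophilins, calcineurin, NFAT and RCAN went to -0.036 without pair 1. No gene named for its difference at 12 h changed direction under any alternative run, the replicate block included. This was largely set in advance, because the genes named by steadiness had the same sign in all pairs. Neither the block nor the loss of a pair can turn such a sign, so those runs lend it no support. For agreement with 48 h, leaving out the pair of replicate 3 there raised the genes higher at both times from 296 to 637 and those lower at both from 406 to 743, because fewer pairs must agree.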
